A study of Mus musculus with 4 samples.

Results

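Phospho-CREB occupancy was examined at 10 Krüppel-like factor (KLF) genes of the mouse: Klf2, Klf3, Klf4, Klf5, Klf6, Klf7, Klf9, Klf10, Klf13 and Klf15. Peaks of 4 chromatin immunoprecipitation libraries were merged where they shared at least 1 bp, and a region was taken when its centre lay inside one of these genes or within 100 kb of one of their annotated transcription start sites (TSS). This gave 45 regions of the 28335 in all, none of them taken for more than 1 of the genes. The cells were MC3T3-E1, a clonal pre-osteoblast line from mouse calvaria, given either forskolin (100 nM, 1 h), a direct activator of the cAMP-producing adenylyl cyclases, or the DMSO vehicle. Each treatment had 2 libraries that the labels call biological replicates, and the antibody recognised CREB phosphorylated at serine 133. The data are 1 list of peaks per library, with a score of unstated scale. Each score was therefore read only as a percentile within its own list, where 100 is the top. The lists held 25566 and 19371 peaks under forskolin and 14686 and 10180 under vehicle, read totals were not used here, and coordinates are in build mm9 (NCBIM37). Peak lists do not measure expression, so the cell type could not be checked by marker levels. A region of any class lay within 10 kb of a TSS of 5 of 5 osteoblast markers, 1 of 2 adipocyte, 0 of 2 skeletal muscle and 1 of 2 haematopoietic markers. The share of all genes with such a region was not counted, so these counts say nothing of the cell type.

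KLF proteins bind GC-rich and CACCC-type DNA through zinc fingers at their carboxyl end and differ in the cofactors they recruit. Klf2, Klf4, Klf5, Klf6 and Klf7 are mainly grouped as activators, Klf3 is a repressor that recruits CtBP, and Klf9, Klf10 and Klf13 can recruit the corepressor Sin3A. Several KLF genes are immediate early or hormone-induced genes, and Klf10 is known in osteoblasts as a gene induced early by TGF-beta. CREB binds the cAMP response element (CRE), whose full palindrome is TGACGTCA and whose core is TGACG, and protein kinase A phosphorylates it when cAMP rises.

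The regions that differed most between the lists, or that held the full CRE, are given here as the 201 bases round the region's centre, read 5′ to 3′ on the strand of the named gene. Capitals mark a CRE (TGACGTCA or its core TGACG, or CGTCA on the other strand), an AP-1 site (TGAGTCA or TGACTCA), or a GC box (GGGCGG or CCGCCC). The first is from the Klf9 region with the largest rank difference, the next from the region with the full CRE near Klf10, then come all 4 regions called in both forskolin and neither vehicle library, a close pair upstream of Klf2, and the promoters of Klf13 and Klf4. None of these windows overlaps an annotated exon.
Klf9 -34239 bp, chr19:23181377-23181577, plus strand: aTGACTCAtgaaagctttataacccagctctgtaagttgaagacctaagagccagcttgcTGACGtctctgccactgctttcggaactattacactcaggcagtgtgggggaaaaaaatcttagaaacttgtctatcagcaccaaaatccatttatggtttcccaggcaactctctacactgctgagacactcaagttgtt
Klf10 -74374 bp, chr15:38304738-38304938, minus strand: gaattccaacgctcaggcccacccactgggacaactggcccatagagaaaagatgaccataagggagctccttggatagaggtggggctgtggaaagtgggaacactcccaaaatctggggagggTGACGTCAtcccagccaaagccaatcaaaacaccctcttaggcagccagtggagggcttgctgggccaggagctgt
Klf3 66568 bp, chr5:65270046-65270246, plus strand: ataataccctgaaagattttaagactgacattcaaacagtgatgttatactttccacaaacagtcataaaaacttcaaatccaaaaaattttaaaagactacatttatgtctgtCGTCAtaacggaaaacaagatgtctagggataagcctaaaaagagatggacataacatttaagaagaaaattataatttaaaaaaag
Klf3 2789 bp, chr5:65197451-65197651, plus strand: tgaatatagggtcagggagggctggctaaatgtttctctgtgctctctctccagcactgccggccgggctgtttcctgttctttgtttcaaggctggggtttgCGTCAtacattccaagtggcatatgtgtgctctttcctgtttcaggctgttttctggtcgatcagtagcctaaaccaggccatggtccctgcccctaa
Klf2 -23244 bp, chr8:74819588-74819788, plus strand: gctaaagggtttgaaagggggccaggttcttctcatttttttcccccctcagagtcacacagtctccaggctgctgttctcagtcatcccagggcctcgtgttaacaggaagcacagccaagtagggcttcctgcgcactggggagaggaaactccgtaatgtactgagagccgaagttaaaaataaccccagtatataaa
Klf4 -53854 bp, chr4:55599101-55599301, minus strand: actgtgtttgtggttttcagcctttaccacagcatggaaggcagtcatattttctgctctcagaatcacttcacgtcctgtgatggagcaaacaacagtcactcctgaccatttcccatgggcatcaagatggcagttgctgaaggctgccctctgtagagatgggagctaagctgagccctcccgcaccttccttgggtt
Klf2 -16045 bp, chr8:74826787-74826987, plus strand: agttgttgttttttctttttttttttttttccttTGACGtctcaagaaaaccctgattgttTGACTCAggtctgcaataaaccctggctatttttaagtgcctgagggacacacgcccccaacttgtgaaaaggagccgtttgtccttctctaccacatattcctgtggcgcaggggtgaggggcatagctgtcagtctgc
Klf2 -15240 bp, chr8:74827592-74827792, plus strand: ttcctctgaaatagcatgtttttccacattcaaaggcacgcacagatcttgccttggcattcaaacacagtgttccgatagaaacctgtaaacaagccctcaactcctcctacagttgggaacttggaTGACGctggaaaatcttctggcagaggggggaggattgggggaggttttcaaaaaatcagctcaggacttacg
Klf13 -318 bp, chr7:71084019-71084219, minus strand: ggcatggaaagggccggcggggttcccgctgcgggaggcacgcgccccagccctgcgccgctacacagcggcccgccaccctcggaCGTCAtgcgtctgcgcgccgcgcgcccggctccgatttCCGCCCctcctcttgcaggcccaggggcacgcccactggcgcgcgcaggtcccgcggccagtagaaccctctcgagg
Klf4 -495 bp, chr4:55545742-55545942, minus strand: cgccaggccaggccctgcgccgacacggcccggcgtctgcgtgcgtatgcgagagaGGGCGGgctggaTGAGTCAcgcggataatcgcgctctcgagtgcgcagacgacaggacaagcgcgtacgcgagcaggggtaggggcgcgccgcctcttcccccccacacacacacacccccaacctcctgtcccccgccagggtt

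Of the 45 regions, 17 (37.8%, Wilson 95% interval 25.1 to 52.4) had a peak in all 4 libraries, against 31.5% of all regions. Another 4 (8.89%, 3.51 to 20.7) were called in both forskolin libraries and in no vehicle library, a class named forskolin-only here, against 18.3% of all regions. None was vehicle-only (0 of 45, Wilson upper bound 7.87%), against 0.441% of all regions. A further 4 had both forskolin libraries and 1 vehicle library (8.89%, against 12.1%), and 11 had a single library (24.4%, against 30.2%). The forskolin-only share at KLF genes was thus below that of all regions, although its interval reaches past it. The comparison depended on the setting. With the top 50% of each list the share was higher, at 31.8% (7 of 22), against 20.6% of all regions. With equal lists it was near that of all regions, at 10.7% (3 of 28), against 10.0%. These intervals cover counting error only and not the spread between cultures.

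**Figure D1:**
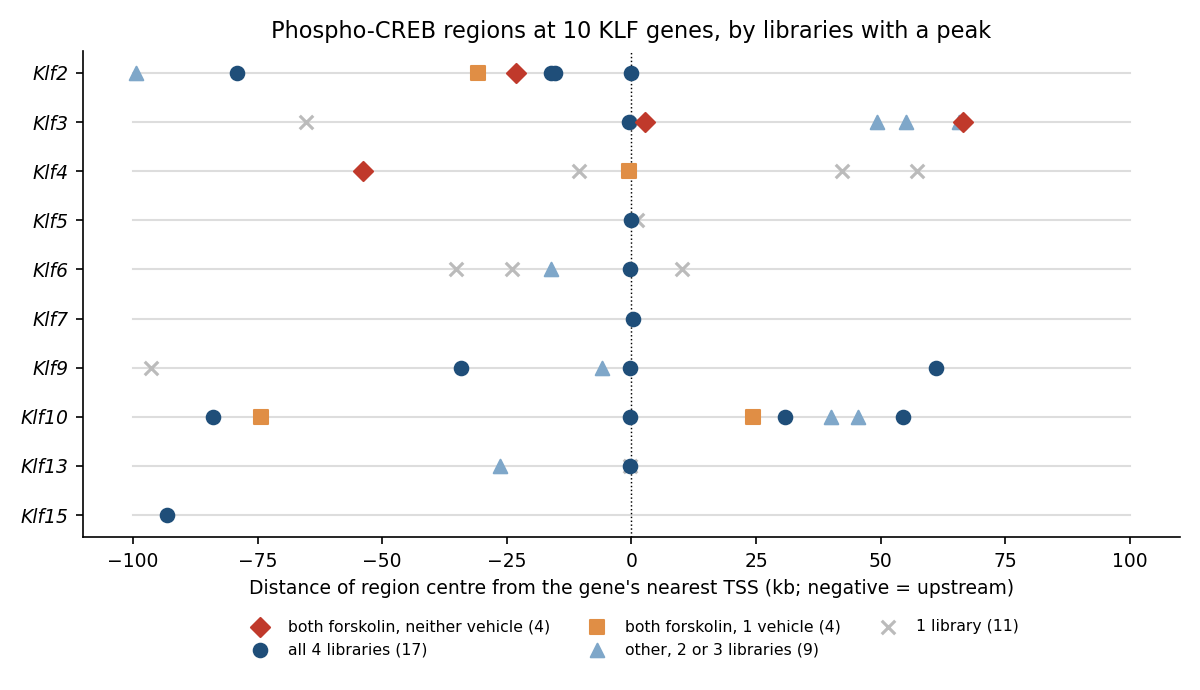
Each symbol is 1 of the 45 regions, placed by its distance from the nearest TSS of its gene (kb, negative upstream), 1 row per gene, with the symbol showing which libraries had a peak. Dark circles of all 4 libraries stand at the TSS of 8 genes, the 4 red diamonds of both forskolin and neither vehicle library lie away from the TSS of Klf2, Klf3 and Klf4, and a single-library region at an internal TSS of Klf13 is hidden behind the circle there.

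The forskolin libraries differed in how many of these regions they called. A peak was present at 42 and 27 regions in forskolin replicates 1 and 2, and at 29 and 21 in vehicle replicates 1 and 2. The mean was 34.5 ± 10.6 under forskolin and 25.0 ± 5.66 under vehicle (SD, n = 2 each), a difference of 9.5 peaks that lay within the spread (exact two-sided permutation p = 0.667, where 0.333 is the smallest this design allows). Forskolin replicate 2 thus called fewer KLF regions than vehicle replicate 1, although its list is longer. Relative to list length, KLF peaks numbered 16.4 and 13.9 per 10000 peaks under forskolin and 19.7 and 20.6 under vehicle, and these groups did not overlap (exact permutation p = 0.333). With every list cut to the length of the shortest, the KLF peaks were 19 and 19 under forskolin and 17 and 21 under vehicle, so the groups then overlapped. Of the 11 KLF regions with 1 library, 9 (81.8%) belonged to forskolin replicate 1, the longest list, against 72.1% of all 8546 regions with 1 library. A further 8 regions (17.8%, against 6.59% of all regions) were called in forskolin replicate 1 and a vehicle library but not in forskolin replicate 2.

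**Figure D2:**
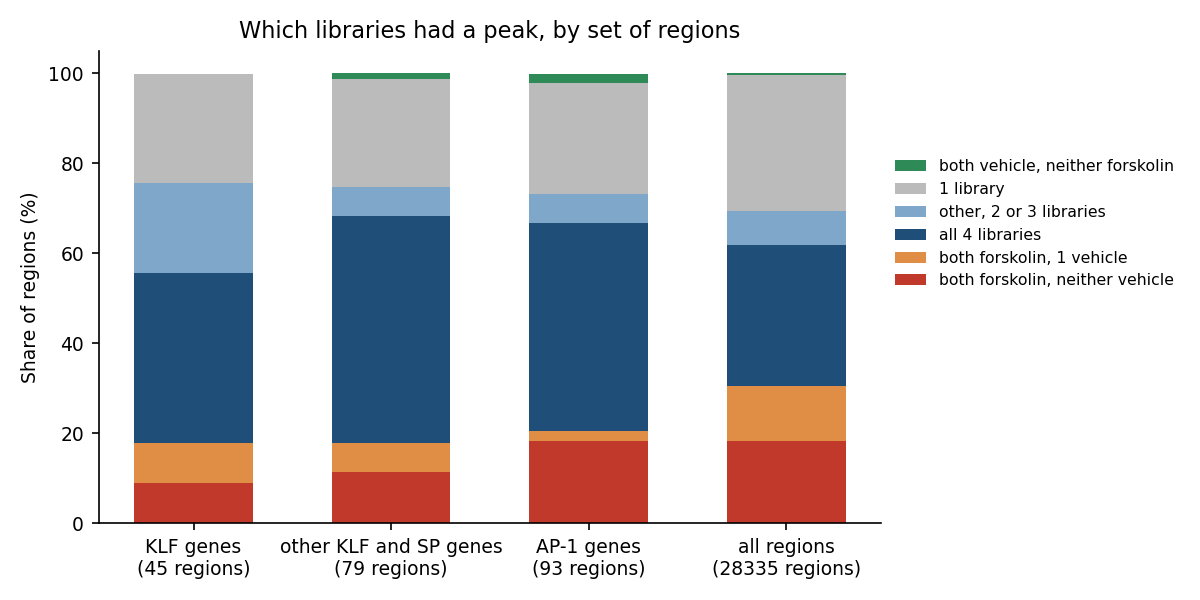
Bars show the share of regions (%) by the libraries with a peak, for the 45 regions of the 10 KLF genes, 79 of 16 other KLF and SP genes, 93 of 7 AP-1 genes and all 28335. The red part, both forskolin and neither vehicle library, is 8.89% for the KLF genes, 11.4% for the other KLF and SP genes, 18.3% for the AP-1 genes and 18.3% for all regions.

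A region of all 4 libraries lay within 1 kb of a TSS of 8 of the 10 KLF genes, against 30.3% of all protein-coding genes, and within 100 kb of 9 of the 10 (all but Klf4), against 67.2%. Klf9, a factor induced by glucocorticoid and thyroid hormone, had the highest-ranked promoter region (chromosome 19, 23215099 to 23215610, intergenic, -361 bp from the TSS; negative values are upstream). Its percentiles were 94.2 and 94.9 in the forskolin lists and 91.9 and 92.9 in the vehicle lists, so it stood above 90% of the peaks of every list. The vehicle replicate 2 peak was centred at -466 bp, and the others at -282, -257 and -309 bp in forskolin replicates 1 and 2 and vehicle replicate 1. When overlap of 50% of the shorter peak was required, that peak parted from the others and the promoter was no longer a region of all 4 libraries. With lists of equal length the ranks overlapped, at 85.3 and 90.3 under forskolin and 88.3 and 92.9 under vehicle.

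Klf13, a regulator of T-cell genes that can recruit Sin3A, followed with a region at -318 bp (chromosome 7, 71083955 to 71084283, intergenic). It ranked at 88.9 and 85.1 under forskolin, against 71.2 and 0.761 under vehicle. The groups did not overlap, but the 2 vehicle lists lay far apart, and 1 of them placed it near the bottom. Klf4, a pluripotency and epithelial differentiation factor, was the gene whose promoter was called in 3 libraries (chromosome 4, 55545678 to 55546005, intergenic, -495 bp). Its percentiles were 85.1 and 86.0 under forskolin and 56.2 in vehicle replicate 1, with no peak in vehicle replicate 2. Without vehicle replicate 1, the Klf4 promoter counted as forskolin-only.

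The promoters of Klf3, Klf7, Klf6, Klf10 and Klf2 ranked in the middle and upper part of the lists, with groups that overlapped. Klf3 had a region at -513 bp (chromosome 5, 65193949 to 65194281, intergenic), with percentiles of 76.7 and 70.4 under forskolin and 78.6 and 50.6 under vehicle. Klf6, which is induced early after injury and growth signals, had one at -310 bp (chromosome 13, 5860270 to 5860580, intergenic), with 72.6 and 65.9 against 64.4 and 69.8. Klf2, which is known for endothelial and T-cell quiescence, had a region over its TSS in the 5′ UTR exon (chromosome 8, 74842754 to 74843140, 15 bp downstream), with 74.8 and 50.5 against 39.8 and 59.3. In all 3, at least 1 vehicle list ranked the promoter above 1 forskolin list.

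At the promoters of Klf10, Klf7 and Klf2, picked after the positions were seen, peaks of the same replicate number lay closer together than peaks of the same treatment. At Klf10 (chromosome 15, 38230457 to 38230889, intergenic, -209 bp), peaks were centred at -224 bp in forskolin replicate 1 and -144 bp in forskolin replicate 2, against -275 bp in vehicle replicate 1 and -144 bp in vehicle replicate 2. Its percentiles were 70.6 and 62.4 under forskolin and 68.2 and 52.2 under vehicle. Klf7, which is known for neuronal growth, has 5 annotated TSS, and its region lay in an intron between them (chromosome 1, 64168230 to 64168769). Measured from its outermost TSS, the peaks were centred 242 and 475 bp downstream in forskolin replicates 1 and 2, and 341 and 462 bp downstream in vehicle replicates 1 and 2. The percentiles were 77.2 and 64.3 against 82.8 and 48.7, so in both treatments replicate 1 ranked it higher. At Klf2 the centres were at 53 and -27 bp under forskolin and at 47 and 3 bp under vehicle. At Klf5, Klf9 and Klf13, in contrast, the forskolin centres did not overlap the vehicle centres. They were at -61 and -127 bp under forskolin and -177 and -176 bp under vehicle for Klf5, and at -327 and -322 bp against -304 and -306 bp for Klf13. At the promoters of Klf3 (-502 and -510 against -529 and -498 bp) and Klf6 (-310 and -312 against -306 and -311 bp), neither pattern held. How often either pattern occurs over all shared regions was not counted, so neither is read as an effect of treatment or replicate. The labels do not say whether a replicate number marks a shared day or batch.

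Klf5, a factor of proliferating epithelia and smooth muscle, had the lowest promoter (chromosome 14, 99697583 to 99698004, intergenic, -116 bp), at 8.0 and 44.1 under forskolin and 21.9 and 13.3 under vehicle. Klf15, which regulates gluconeogenesis and is a glucocorticoid target, had no region within 10 kb of a TSS. Its single region within 100 kb lay 93067 bp upstream, at the TSS of Zxdc (chromosome 6, 90319309 to 90319696, UTR exon), and had peaks in all 4 libraries. Ordered by the mean forskolin percentile, the promoters ran Klf9 (94.5 ± 0.515), Klf13 (87.0 ± 2.68), Klf4 (85.5 ± 0.670), Klf3 (73.5 ± 4.43), Klf7 (70.7 ± 9.15), Klf6 (69.3 ± 4.74), Klf10 (66.5 ± 5.82), Klf2 (62.7 ± 17.2) and Klf5 (26 ± 25.5; SD, n = 2 lists each). Neighbours in the run from Klf3 to Klf2 differed by less than the larger of their SDs, as did Klf13 and Klf4.

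**Figure D3:**
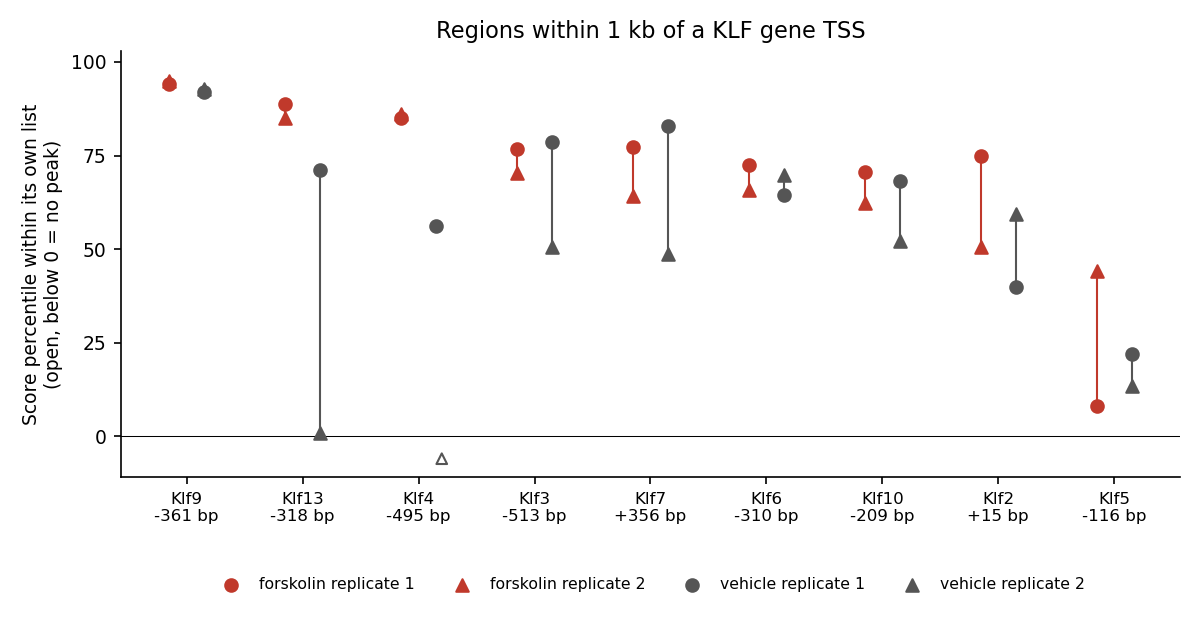
The vertical axis is the percentile of the peak's score within its own list, for the 9 KLF genes with a region of 2 or more libraries within 1 kb of a TSS, in falling order of the forskolin mean. Red symbols are the forskolin lists and grey the vehicle lists, circles replicate 1 and triangles replicate 2, and an open symbol below 0 means no peak (vehicle replicate 2 at Klf4). Groups stand apart at Klf9, by about the width of the symbols, and at Klf13, where the vehicle lists range from 0.761 to 71.2.

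Away from the promoters, the widest separation between treatments was 34239 bp upstream of Klf9 (chromosome 19, 23181291 to 23181663, intergenic, first sequence above). All 4 libraries had a peak there, at percentiles of 95 and 94.1 in the forskolin lists and 31.1 and 29.4 in the vehicle lists. The mean difference was 64.3 percentile points, and the replicates of a treatment were within 2 points of each other, although with 2 lists each an exact permutation test cannot go below p = 0.333. Of all 8930 regions of all 4 libraries, 104 (1.16%) had a difference as large or larger, and so did 3.50% of the 2946 that lay farther than 1 kb from any TSS. The region was picked for the largest difference among the 17 KLF regions of all 4 libraries, so these shares are not a test of it. No other protein-coding gene had a TSS closer to it than Klf9. Its CRE core was 7 and 4 bp from the centres of the forskolin peaks and 74 and 36 bp from those of the vehicle peaks. An AP-1 site lay 65 and 62 bp away in the forskolin and 132 and 94 bp away in the vehicle lists. At most KLF regions of all 4 libraries with a CRE core, the core distances of the treatments overlapped (given below). The share of all regions where such distances part by treatment was not counted, so the split at Klf9 is only a description. With the top 50% of each list, the vehicle peaks dropped out and the region counted as forskolin-only. Klf9 had another region of all 4 libraries at 61107 bp downstream (23276545 to 23277100), where the ranks overlapped at 64.4 and 36.4 under forskolin and 63.5 and 15.9 under vehicle.

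Upstream of Klf2 lay a cluster of 4 regions of at least 3 libraries or of both forskolin libraries. The pair at -16045 bp (chromosome 8, 74826686 to 74827087) and -15240 bp (74827523 to 74827861), both intergenic, was called in all 4 libraries. The first ranked at 60.7 and 62.4 under forskolin and 21.9 and 10.9 under vehicle, and the second at 69.8 and 62.4 against 21.9 and 6.70. Both forskolin lists thus placed both regions above both vehicle lists, by means of 45.2 and 51.8 points. Farther out, the region at -23244 bp (74819504 to 74819872, intergenic) was forskolin-only at 84.2 and 65.9. The one at -30837 bp (74811891 to 74812298) had 25.0 and 12.4 under forskolin and 21.9 in vehicle replicate 1. The predicted gene Gm10282 has a TSS closer to these 4 regions than that of Klf2, so their assignment to Klf2 rests on distance alone. The outermost regions of the Klf2 window, at -79046 and -99359 bp, lay 31 and 56 bp upstream of the TSS of Ap1m1 and Fam32a.

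Klf3 had 2 of the 4 forskolin-only regions. The first lay in an intron 2789 bp downstream of a TSS (chromosome 5, 65197367 to 65197735), at percentiles of 73.0 and 64.3, and was the sole one of its class closer than 10 kb to a TSS of the 10 genes (1 of 10 genes, against 8.87% of all genes). The second lay between genes 66568 bp downstream (65269980 to 65270312), at 90.5 and 79.0, the highest forskolin percentiles of the 4. Next to it, a region at 65799 bp (65269191 to 65269563) was called in forskolin replicate 1 and both vehicle libraries, at 85.1 in forskolin replicate 1 and 79.4 and 65.6 in the vehicle lists. With peaks within 500 bp joined, the neighbours became 1 region of all 4 libraries and the forskolin-only call was lost. A TSS of Tlr1 was closer to both than that of Klf3.

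The last forskolin-only region lay 53854 bp upstream of Klf4 (chromosome 4, 55599040 to 55599362), in an intron of the noncoding transcript Gm12511, and ranked low at 28.0 and 17.1. It was not found with the top 50% of each list or with equal lists. Klf4 had 3 further distal regions, all in forskolin replicate 1 alone, at percentiles of 3.78, 21.8 and 6.39. In all, 3 of the 10 KLF genes (Klf2, Klf3 and Klf4) had a forskolin-only region within 100 kb, against 40.0% of all protein-coding genes. Klf5, Klf6, Klf7, Klf9, Klf10, Klf13 and Klf15 had 0.

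Klf10, with 8 regions, matched Klf3 for the largest number, and 5 of the 8 lay downstream of the TSS. The region at -74374 bp (chromosome 15, 38304653 to 38305023, intergenic) was the one region of the 45 with the full CRE within 100 bp of its centre (second sequence above). It had percentiles of 61.3 and 50.5 under forskolin and 33.3 in vehicle replicate 1, with no peak in vehicle replicate 2. The palindrome lay 2 and 62 bp from the centres of the forskolin peaks and 19 bp from that of the vehicle peak. Regions of all 4 libraries lay at 54570 bp (29.5 and 36.4 under forskolin, 6.13 and 21.2 under vehicle), 30843 bp (56.5 and 47.5, against 56.2 and 31.8) and -83994 bp (32.3 and 47.5, against 57.3 and 0.501). The first of these was ranked higher in both forskolin lists, and at the others the treatments overlapped. The region at 24385 bp ranked low everywhere, at 9.73 and 8.46 under forskolin and 0.501 in vehicle replicate 2. Klf6 had 4 regions besides its promoter and Klf13 had 2, and none of these was called in both libraries of a treatment.

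**Figure D4:**
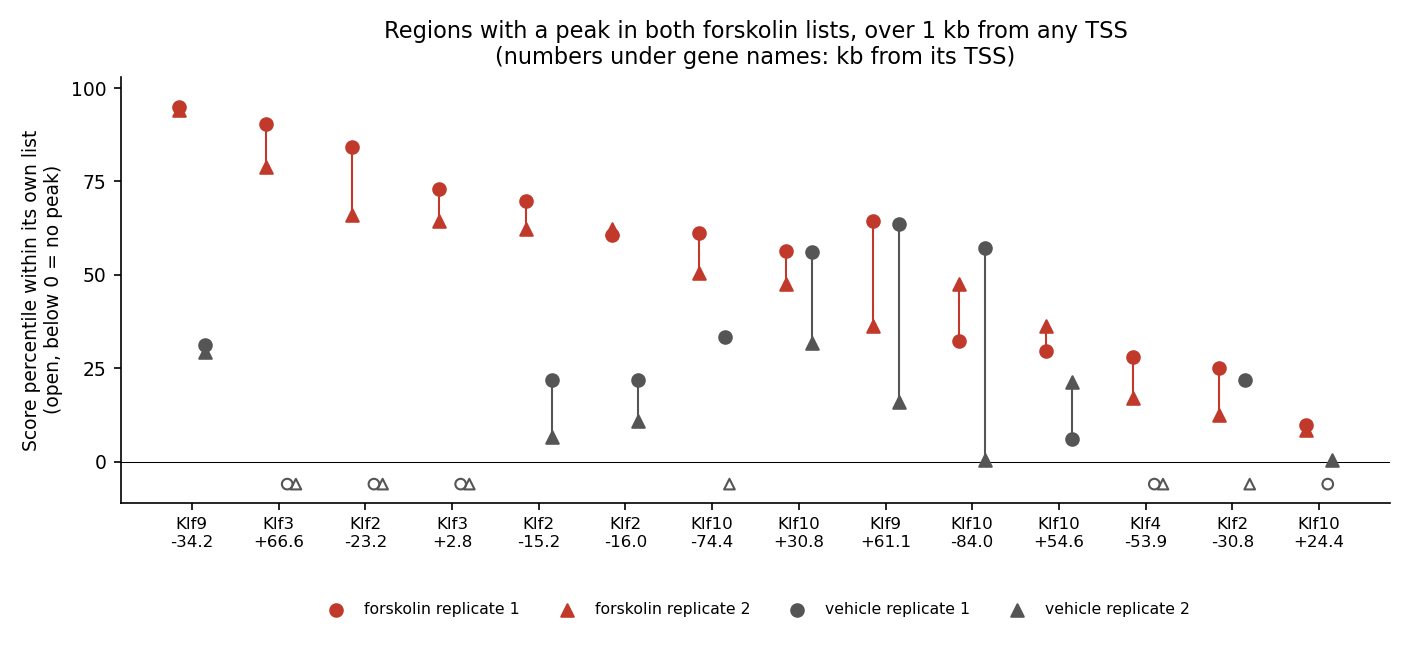
The vertical axis is the percentile of the peak's score within its own list, for the 14 KLF regions with peaks in both forskolin lists that lay over 1 kb from any TSS, in falling order of the forskolin mean. Red symbols are the forskolin and grey the vehicle lists, circles replicate 1 and triangles replicate 2, and open symbols below 0 mean no peak. The Klf9 region at -34.2 kb has 95 and 94.1 under forskolin against 31.1 and 29.4 under vehicle.

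Over the 17 KLF regions of all 4 libraries, 6 (35.3%) had both forskolin percentiles above both vehicle percentiles, against 44.6% of all 8930 such regions, and 0 had the reverse, against 2.51%. The 6 were the Klf9 regions at -34239 and -361 bp, the Klf2 pair, the Klf10 region at 54570 bp and the Klf13 promoter. Among the 10 that lay within 1 kb of any TSS, 2 ranked higher in both forskolin lists, against 37.2% of all such promoter regions. Among the 7 farther out there were 4, against 59.6%. The median difference, forskolin minus vehicle, was 8.93 percentile points for the KLF regions and 6.94 for all regions of all 4 libraries. Percentiles depend on what else a list holds, and the forskolin lists were longer. With every list cut to its 10180 highest scores, 9 KLF regions of all 4 libraries remained. Of these, 2 (22.2%, against 13.6% of all 5912) ranked higher in both forskolin lists, too few to rank the KLF share against that of all regions. They were the Klf9 region at -34239 bp (87.5 and 88.8 against 1.06 and 29.4) and the Klf13 promoter (72.1 and 71.7 against 58.4 and 0.761). With these equal lists 5 of the 9 ranked lower in both forskolin lists, against 47.0% of all regions. Those were the promoters of Klf3, Klf6, Klf7 and Klf10 and the region at the TSS of Ap1m1, where the treatments had overlapped in the full lists. Cutting the lists moved all regions in the same way, from 2.51% to 47.0% ranked lower, so this is not particular to KLF genes.

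**Figure D5:**
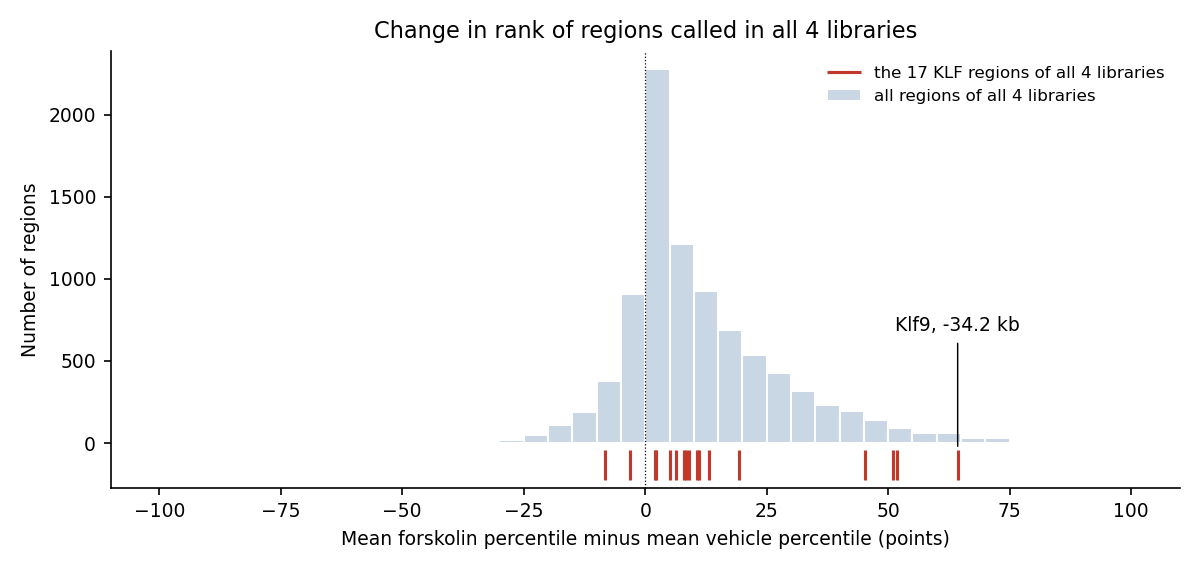
The histogram counts all 8930 regions of all 4 libraries by the mean forskolin percentile minus the mean vehicle percentile, in bins of 5 points, and red ticks mark the 17 KLF regions. Most ticks lie near the bulk of the histogram, with a KLF median of 8.93 against 6.94, and the Klf9 region at -34.2 kb lies in the upper tail at 64.3.

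Motifs were counted within 100 bp of the region's centre on both strands. The CRE core TGACG was found in 10 of the 45 KLF regions (22.2%, against 29.1% of all regions) and the full CRE in 1 (2.22%, against 3.53%); every full CRE also holds the core. The AP-1 site TGAGTCA was in 8 (17.8%, against 13.9%), the GC box GGGCGG in 9 (20.0%, against 22.1%) and the CACCC-type box CCACACCC in 1 (2.22%, against 2.69%). In the 17 regions of all 4 libraries, the full CRE was in 0 (against 6.64% of all such regions), the CRE core in 6 (35.3%, against 39.3%), the AP-1 site in 4 (23.5%, against 6.17%), the GC box in 7 (41.2%, against 39.1%) and the CACCC-type box in 1 (5.88%, against 2.60%). The 4 with an AP-1 site all lay farther than 1 kb from any TSS, as did 7 of the 17 and 2946 of all 8930. The AP-1 share of such distal regions alone was not counted. Of the forskolin-only regions, both of Klf3 held a CRE core, at 24 and 38 bp and at 5 and 31 bp from the forskolin peak centres, while those of Klf2 and Klf4 held none of the 5 motifs. At the Klf13 promoter the CRE core was 3 and 8 bp from the forskolin and 26 and 24 bp from the vehicle peak centres. At the Klf2 pair and the promoters of Klf3 and Klf10, these distances overlapped between treatments. They were 106 and 86 bp under forskolin and 114 and 14 bp under vehicle at Klf2 -16045 bp. At Klf2 -15240 bp they were 16 and 48 against 21 and 41 bp, and at the Klf3 promoter 61 and 69 against 88 and 57 bp. How often these distances part by treatment over all regions was not counted.

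In the 500 bp upstream of the annotated TSS, all 10 KLF genes had a GC box (against 54.8% of all genes), 8 had a CRE core (against 41.0%), and 0 had a full CRE (against 3.43%) or an AP-1 site (against 14.7%). Klf6 and Klf7 lacked the core there and still had promoter regions of all 4 libraries, while Klf15 had the core and no promoter region. Klf2, Klf4, Klf5 and Klf9 had the core there but none within 100 bp of the centre of their promoter region. The AP-1 site of the Klf4 promoter region lay outside these 500 bp. A match says only that the letters are present.

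The other 16 KLF and SP genes were counted for comparison. They had 79 regions, of which 9 (11.4%, against 18.3% of all regions) were forskolin-only and 40 (50.6%, against 31.5%) had all 4 libraries. A forskolin-only region lay within 100 kb of 7 of the 16 genes, against 40.0% of all protein-coding genes. Within 10 kb there were 3 such genes, against 8.87% of all genes. They were Sp7, the osteoblast factor osterix (3558 bp downstream, percentiles 39.4 and 31.9), Klf1 (6663 bp downstream, 26.5 and 17.1) and Sp6 (7377 bp downstream, 20.1 and 8.46). A TSS of another gene was nearer to the regions of Klf1 and Sp6. The forskolin-only region of Klf3 at 2789 bp ranked above all 3 of these regions. Of the 7 AP-1 genes, which encode the Fos and Jun families, 6 had a forskolin-only region within 100 kb, against 40.0% of all genes. Of their 93 regions, 17 (18.3%, against 18.3% of all regions) were forskolin-only. The KLF genes had a median of 5 regions each, against 4 for all 22367 protein-coding genes. Just inside the 100 kb limit lay the region at the TSS of Fam32a, 99359 bp from Klf2 (48.1 in forskolin replicate 1, 4.79 and 4.93 in the vehicle lists). Just outside lay 3 regions of all 4 libraries. The one 102066 bp upstream of Klf15 had 36.1 and 5.31 under forskolin and 9.76 and 4.93 under vehicle. The one 102499 bp downstream of Klf2, nearest to a TSS of Eps15l1, had 69.8 and 79.8 under forskolin and 71.2 and 31.8 under vehicle. The one 103984 bp upstream of Klf7, which is its nearest gene, ranked higher in both forskolin lists, at 37.2 and 50.5 under forskolin and 7.73 and 31.8 under vehicle.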

How the data were processed

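Phospho-CREB ChIP-seq peak lists of 4 MC3T3-E1 libraries were used, 2 of forskolin and 2 of vehicle, grouped and numbered by sample title. An input library of another series was not used here. Per the submitters' processing notes, the tools were Bowtie, an aligner, and HOMER, and the build was mm9, with no versions or thresholds given. Peaks had been called per library. The deposited score of each peak, the authors' value of unstated scale, was used as a percentile within its list (mid-rank for ties). Sequencing depth is unknown.

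Peaks sharing 1 bp or more were merged. The reference was NCBIM37 with GENCODE M1, and all regions fitted its 21 chromosomes. A distance is that between the centre of a region and the closest annotated transcript start of the gene. Sequences are from that genome. Shares have Wilson 95% intervals. Peak numbers were compared by an exact permutation test, and other counts are set beside their share over all regions or genes. Merging and class rules were checked on simulated lists. Alternatives were other merging rules, shorter lists, each library left out, a 10 kb window and the nearest TSS. All 10 genes are named, and regions described singly were to be those of 2 or more libraries within 5 kb of a TSS and those of a treatment-specific class. Other regions, and the sequences of the Klf9 region, the Klf2 pair and the Klf13 and Klf4 promoters, were chosen after their values were seen. The members, lists and sequences shown were chosen with earlier results of these data known. The software was scipy 1.17.1, numpy 2.4.6, pysam 0.24.0 and matplotlib 3.10.9 under Python 3.11.15.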

Additional observations from a re-analysis of the deposited data

How the results depend on the processing

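The 4 forskolin-only regions of the KLF genes became 7 with the top 50% of each list, 3 with equal lists, 1 within 10 kb of a TSS, 2 when a KLF gene had to have the nearest TSS, and 5 to 13 when a library was left out (13 without forskolin replicate 2, 7 without vehicle replicate 1). The share of KLF regions in that class was above that of all regions with the top 50% (31.8%, against 20.6%) and near it with equal lists (10.7%, against 10.0%). In the other settings it was below, for example 28.9% against 42.4% without forskolin replicate 2. Within 10 kb (7.14%) and with the nearest TSS (5.88%), the 18.3% set beside it covered all regions without that limit. Those sets are therefore unlike. The 3 genes with such a region became 1 within 10 kb and 4 to 6 without a library (6 without forskolin replicate 2). The vehicle-only count stayed at 0 except when a library was left out, where it ran from 0 to 2 (2 without forskolin replicate 1, 1 without vehicle replicate 2). Over all regions this class held 125 of 28335 in the main setting and 1064 of 15455 with equal lists. It held 467 of 22239 without forskolin replicate 1 and 813 of 28227 without vehicle replicate 2, so its share over all regions also moved with the setting. The 17 regions of all 4 libraries became 5 with the top 50%, 9 with equal lists, 8 within 10 kb, and 17 to 20 without a library. Of those, the number ranked higher in both forskolin lists, 6, became 1 with the top 50%, 2 with equal lists, 2 within 10 kb, 3 with the nearest TSS, and 7 to 14 without a library (14 without forskolin replicate 2, 13 without vehicle replicate 1, 10 without vehicle replicate 2). Those 3 are 77.8%, 72.2% and 50% of the KLF regions concerned, against 72.8%, 74.6% and 51.6% of all regions. The share was 41.2% against 48.7% without forskolin replicate 1, 20.0% against 43.1% with the top 50%, and 22.2% against 13.6% with equal lists. Within 10 kb and with the nearest TSS it was 25.0%, against 44.6% of all shared regions without that limit. Leaving out a library loosens each rule, and shorter lists or windows hold fewer regions. The Klf9 region at -34239 bp had a difference of 72.9 points with equal lists and 63.5 to 65.2 without a library. The difference in KLF peaks per library, 9.5, ran from 2 without forskolin replicate 1 to 17 without forskolin replicate 2 and was 0 with equal lists. With libraries of the same number treated as pairs, as a replicate block, it was 9.5 (exact sign-flip permutation p = 0.5). That p is the smallest 2 pairs allow, so this test could not show a difference. Over the 8930 shared regions, the percentile difference of replicate 1 minus 2 correlated weakly between the treatments (Pearson r = 0.188). Replicate 1 had the longer list in both treatments, and what list length adds to this r was not tested. The labels do not say that numbers pair the libraries. Depth is unknown, so the missing forskolin replicate 2 calls cannot be read as absent sites.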
